A study of Mus musculus with 179 samples.

Results

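Voltage-gated sodium and calcium channels were followed as one gene family through the brain RNA of mice that met early life stress, adult stress, both or neither. Members were the genes whose name in the deposited RPKM table (read density scaled for gene length and library depth) had the form Scn, a number and a or b, or Cacn with a subunit code. That rule found 40 Ensembl genes under 39 names among the 37991 genes of the male ventral tegmental area (VTA) table: 13 sodium channel genes (9 pore-forming, 4 β) and 26 calcium channel genes (10 pore-forming, 4 α2δ, 4 β and 8 of the γ family). Scn8a stood there as 2 gene models, of which the shorter is given apart. In the table of the other regions 39 of 32421 genes were members, and 29 of 16239 were in that of the male nucleus accumbens (NAc). The gene listed as Scn2a1 did not match the name rule, so the pore-forming sodium class described here lacks this subunit.

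All mice were C57Bl6/j (C57BL/6 in the male VTA labels), reared under standard conditions or exposed to early life stress (ELS), and then kept as adult controls or stressed again as adults, with tissue taken 24 hours after behavioral testing. In female mice ELS ran over postnatal days 10 to 20 and the adult stress was sub-threshold variable stress (STVS). Female VTA, NAc and prefrontal cortex (PFC) each had 6 standard-reared control, 5 standard-reared STVS, 5 ELS control and 6 ELS STVS libraries, 1 mouse each. In male mice the adult stress was social defeat. Male PFC and hippocampus (HIP) each had 6 libraries in each of the 4 groups, 1 mouse each, with ELS over days 10 to 20. Male NAc had 4 standard control, 6 standard defeat, 4 control and 6 defeat libraries after late ELS (days 10 to 20), and 4 control and 5 defeat libraries after early ELS (days 2 to 12). Male VTA had 4 standard control, 6 standard defeat, 4 ELS control and 6 ELS defeat libraries, and its labels gave no days for ELS. Each male NAc and male VTA library pooled punches from 3 mice. No label tied the libraries of different regions to one mouse, so regions were compared as unpaired groups, and p-values measure the spread between these libraries. In bulk tissue, fewer cells of a type and less RNA per cell cannot be told apart.

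Voltage-gated sodium channels open when the membrane depolarises and carry the upstroke of the action potential. Each has one large pore-forming α subunit, whose gene name ends in a, and small β subunits, whose gene names end in b, which tune gating and surface expression. Voltage-gated calcium channels turn depolarisation into calcium entry, which drives transmitter release, pacemaking and gene transcription. Their pore-forming α1 subunit sets the current type: L-type for Cacna1c, Cacna1d, Cacna1f and Cacna1s, P/Q-type for Cacna1a, N-type for Cacna1b, R-type for Cacna1e and T-type for Cacna1g, Cacna1h and Cacna1i. Intracellular β and extracellular α2δ subunits carry the pore to the membrane. Most brain members of the γ family, among them Cacng2 (stargazin), Cacng3, Cacng4 and Cacng8, are known mainly as auxiliary subunits of AMPA-type glutamate receptors.

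The VTA and NAc tissues carried their region's markers, so these 2 labels could be checked. In standard-reared controls the summed normalised reads of 5 dopamine neuron markers ran from 24214 to 115358 in female VTA and stayed at or under 1409 in the NAc, PFC and HIP libraries of that table. The 6 measured of 7 striatal projection neuron markers summed to between 82506 and 126116 in female NAc, against 4426 to 14848 in the other 4 regional groups of that table. No marker of these lists was at 0 in those groups. The libraries held 19.2 to 42.7 M (mega) recovered reads in the female and male PFC and HIP sets and 13.6 to 23.9 M in male NAc. Of the 114 libraries in that first table, 14 stood apart: 7 by sex-linked transcripts and 7 by high Ttr, a choroid plexus transcript. Of the latter, 6 were male HIP libraries. The sex-linked flags were Xist in a male library, and Y-linked Ddx3y or low Xist alone in a female one. Of the 6 standard-reared HIP controls, which form the HIP side of the regional contrast, 3 had high Ttr. Where leaving them out ended a member's call, or moved a named difference that was called or led its contrast by over 1.5 times, the value without them is given too.

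The promoters of 2 members are shown by the 250 bases before their annotated start (RefSeq, GRCm38): Scn4b and Scn7a, which had the largest differences between NAc and PFC in either direction. Capitals mark matches to the promoter motifs listed below, searched on both strands, of which 2 matched in these sequences.
Scn4b, chr9:45138374-45138623, plus strand: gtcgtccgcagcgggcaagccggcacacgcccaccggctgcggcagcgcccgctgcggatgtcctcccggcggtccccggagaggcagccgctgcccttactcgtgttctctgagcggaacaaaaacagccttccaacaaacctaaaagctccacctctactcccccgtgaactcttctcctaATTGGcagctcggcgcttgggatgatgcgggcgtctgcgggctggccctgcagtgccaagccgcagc
Scn7a, chr2:66784911-66785160, minus strand: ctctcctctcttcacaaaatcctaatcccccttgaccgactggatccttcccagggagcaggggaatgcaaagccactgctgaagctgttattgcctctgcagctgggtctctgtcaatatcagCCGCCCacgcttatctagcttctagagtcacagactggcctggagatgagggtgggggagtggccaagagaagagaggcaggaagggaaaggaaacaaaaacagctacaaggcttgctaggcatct
The capitals in Scn4b are a CCAAT box read on the other strand, and those in Scn7a a GC box (GGGCGG) read on the other strand. In the RefSeq promoter table, 39 promoters of 29 member genes were found, each of 300 bases (250 before to 50 after the start). The TATA box TATAAA stood in 2.56% of the members' promoters and 13.6% of all 32851, with Cacna1d as its only member gene. CCAAT stood in 25.6% and 37.4%, GGGCGG in 41.0% and 35.7%, and the core of the cyclic-AMP element, TGACG, in 15.4% and 20.8%. TTCAGCACC, the left part of the element bound by the repressor REST, was in none of the members' promoters and in 0.371% of all. Median GC content was 59.7% in the members' promoters and 52.7% in all, and these shares are descriptions with no test.

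Expression differed between regions for most members. In unstressed, standard-reared females 32 members were abundant enough to test among the 14000 genes of highest mean, and levels are normalised reads, the authors' library-scaled read counts. Differences are on the log2(value + 1) scale, with limma p-values adjusted over all 14000 genes. Female VTA was below PFC for 18 members (all genes 38.8%) and above it for 11 (all genes 40%). Against NAc, VTA was below for 18 (all genes 38.6%) and above for 12 (all genes 42.5%). NAc was below PFC for 14 (all genes 34.7%) and above it for 12 (all genes 35.7%). In males, HIP was below PFC for 17 (all genes 23.3%) and above it for 6 (all genes 23.4%).

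Region differences of 1 or more on the log2 scale, a 2-fold change, were found for 15 members between VTA and PFC: 6 higher in VTA (all genes 9.85%) and 9 lower (all genes 9.34%). Between VTA and NAc 3 were higher in VTA by that much (all genes 10.7%) and 9 lower (all genes 9.08%). Between NAc and PFC 7 were higher in NAc (all genes 5.99%) and 4 lower (all genes 7.18%). Between HIP and PFC 1 was higher in HIP (all genes 4.14%) and 3 were lower (all genes 3.24%). The median absolute difference of the members was 0.97 between VTA and PFC, where that of all genes was 0.39. It was 0.82 against 0.43 between VTA and NAc, 0.64 against 0.29 between NAc and PFC, and 0.35 against 0.19 between HIP and PFC.

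VTA was lowest of the 3 female regions, below both others at an adjusted p under 0.05, for 14 of the 32 members (all genes 26.8%) and highest for 6 (all genes 29.9%). NAc was lowest for 8 (all genes 20.9%) and highest for 7 (all genes 20.8%). PFC was lowest for 8 (all genes 18.3%) and highest for 10 (all genes 19%). Of the 14 lowest in VTA 13 were calcium channel or γ family genes and the other was Scn2b. The 32 tested members were mostly of these classes: 8 calcium pore, 4 α2δ, 4 calcium β and 6 γ family genes. The rest were 6 sodium pore and 4 sodium β genes. Cacna2d3, among the 13, passed narrowly against PFC (adjusted p = 0.045), a call lost under several settings given below. All 8 tested calcium pore genes were lower in VTA than in PFC (all genes 38.8%), and 4 of 6 tested sodium pore genes were higher there (all genes 40%), a difference between classes that was not tested. The summed myelin markers were higher in VTA, from 459437 to 627777 in VTA against 35967 to 48119 in PFC, and their part in these differences was not tested.

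**Figure D1:**
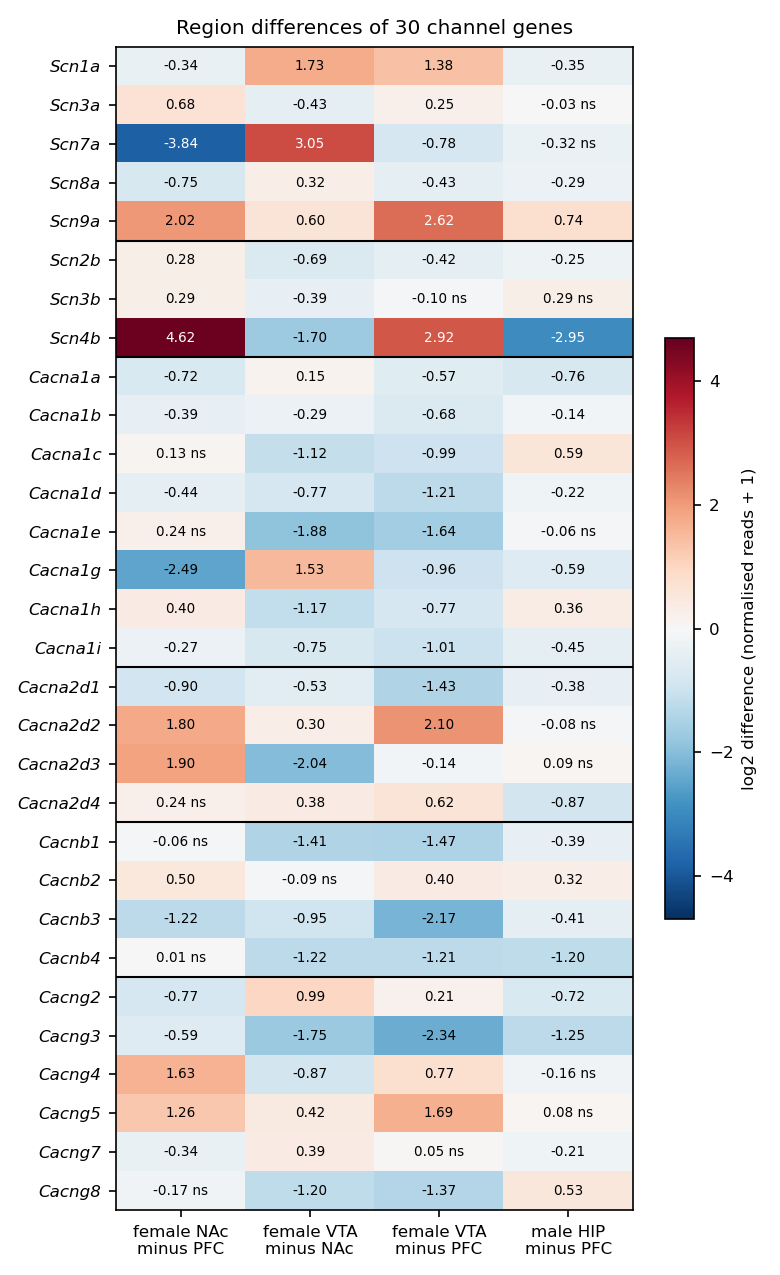
Log2 differences between regions in standard-reared controls for 30 channel genes (rows, grouped by subunit class), with red for higher in the first region and blue for lower. Values marked ns did not pass an adjusted p of 0.05, and the deepest cell is Scn4b at 4.62 between NAc and PFC.

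Sodium pore subunits. Scn1a, the channel known from interneurons and from inherited epilepsy, was highest in VTA. Its 6 female VTA libraries ran from 9002 to 15039 (median 12289) normalised reads, PFC from 4425 to 4915 (median 4663) and NAc from 2788 to 4063 (median 3915). VTA did not overlap the other regions, with a difference of 1.73 ± 0.11, adjusted p = 1.5e-11, from NAc and 1.38 ± 0.11, adjusted p = 4.3e-10, from PFC. Scn8a, the main sodium channel of axon initial segments and nodes, was highest in PFC at 13104 to 15356 (median 14137), against 7632 to 13314 (median 10754) in VTA and 7958 to 9636 (median 8313) in NAc. NAc lay -0.75 ± 0.10 from PFC (adjusted p = 2.4e-06). Scn3a, prominent in the developing brain, had its highest female level in NAc, at 3577 to 4349 (median 3720.4) against 2025 to 2728 (median 2458) in PFC (0.68 ± 0.11, adjusted p = 1.1e-05).

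Scn7a had the largest difference between NAc and PFC among the pore genes. Scn9a, the channel of nociceptors, was highest in VTA at 789 to 1397 (median 1145), then NAc at 635 to 785 (median 745), with PFC at 156 to 194 (median 178). No 2 of these 3 regions overlapped, and VTA exceeded PFC by 2.62 ± 0.12, adjusted p = 1.4e-13. Scn7a, which encodes a sodium-sensing channel that does not open with voltage like its relatives, was highest in PFC. It ran from 319 to 597 (median 379.8) in PFC and 169.8 to 296 (median 246) in VTA to 19.8 to 33.5 (median 28.2) in NAc. NAc was 14.3-fold below PFC (-3.84 ± 0.17, adjusted p = 1.1e-13) and 8.31-fold below VTA. Scn4a, the skeletal muscle channel, with Scn10a and Scn11a, both of sensory neurons, did not reach the level tested: no library of these 5 control groups exceeded 5.37 normalised reads for Scn4a, 44.3 for Scn10a or 29.6 for Scn11a.

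Between male HIP and PFC the sodium pore genes differed less. Scn9a was higher in HIP (0.74 ± 0.22, adjusted p = 0.015), and by 1.14 without the libraries that stood apart, but did not pass with quantile normalisation (0.59, adjusted p = 0.059). Scn7a did not pass in all libraries (-0.32 ± 0.17, adjusted p = 0.15) and was lower in HIP without them (-0.67, adjusted p = 0.012) or without HIP control replicate 1 alone (-0.43). Scn1a was lower in HIP (-0.35 ± 0.09, adjusted p = 0.0081), a call not kept without those libraries (adjusted p = 0.070), and Scn8a was lower (-0.29 ± 0.06, adjusted p = 0.0011). Leaving out the libraries that stood apart also ended the HIP calls of Cacng7 (-0.11) and Scn2b (-0.13), and Scn3b was then called higher in HIP (0.51).

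Sodium β subunits. Scn4b, whose protein supplies the blocking particle of resurgent sodium current, had the widest regional range of all members. Female NAc libraries ran from 19982 to 31547 (median 27812) normalised reads, VTA from 4247 to 12299.6 (median 8801) and PFC from 893 to 1280.4 (median 1121), and no 2 regions overlapped. NAc exceeded PFC 24.6-fold (4.62 ± 0.21, adjusted p = 3.1e-12) and VTA by 3.25-fold, and VTA exceeded PFC by 2.92 ± 0.21, adjusted p = 7.5e-10. In males HIP ran from 126 to 401 (median 193) and PFC from 1046 to 4519 (median 1513), with HIP lower (-2.95 ± 0.35, adjusted p = 1.5e-05). The highest PFC library, control replicate 4 at 4519, also had the highest summed striatal markers of its group (14848, against 5521 to 7602 in the other 5 libraries). Without the libraries that stood apart, that one included, the difference was -2.15 ± 0.27 (adjusted p = 0.00088). The part of striatal tissue in the male PFC values was not tested.

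Scn2b, a β subunit bound to the pore by a disulfide bond, was highest in NAc at 11624 to 13542 (median 12172) and lowest in VTA at 6804 to 8992 (median 7487) (-0.69 ± 0.06, adjusted p = 1.9e-09). Scn3b, a β subunit that is not bound by a disulfide bond, stood at 3342 to 6400.1 (median 4609) in VTA, 5585 to 6061 (median 5867) in NAc and 3920.3 to 5399 (median 4878) in PFC, and NAc was above both PFC (0.29 ± 0.12, adjusted p = 0.038) and VTA. Measured per kilobase of exon, so that genes can be set beside each other, Scn4b made up 45.6% ± 4.5 (SD, n = 6) of the summed level of the 4 β genes in female NAc. Its share was 18.8% ± 4.5 in VTA, 2.46% ± 0.25 in PFC and 0.550% ± 0.21 in male HIP. In male VTA, from RPKM of 4 libraries, the share of Scn4b was 17.0% ± 3.3.

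**Figure D2:**
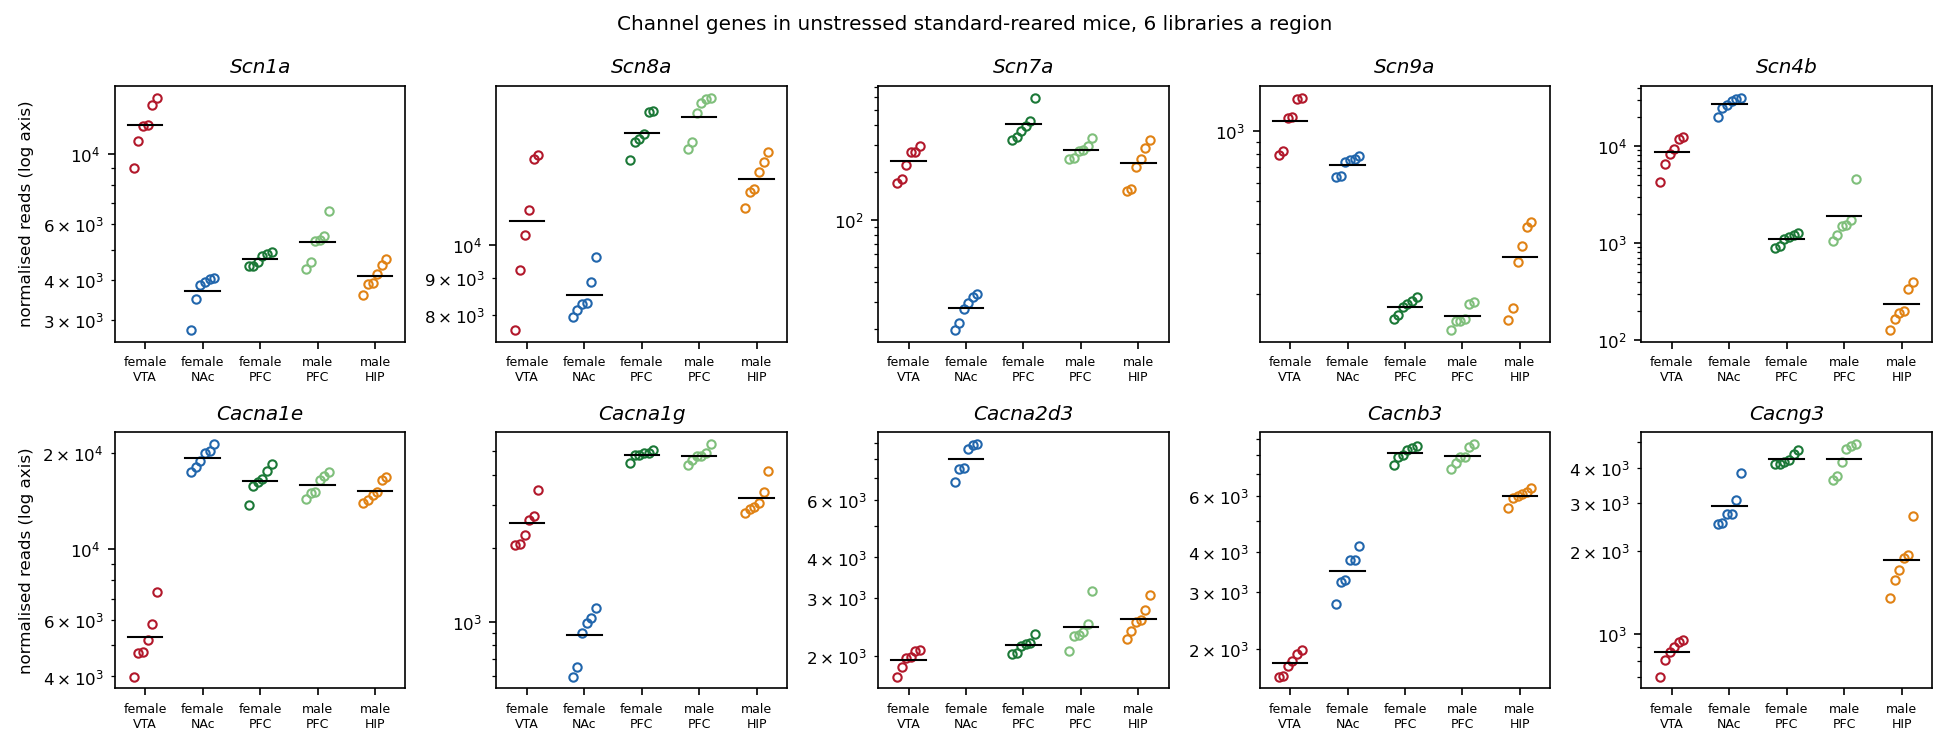
Normalised reads (log axis) of 10 channel genes in the 6 standard-reared control libraries of each region, with circles for libraries and bars for means. Scn4b is highest in NAc, then VTA, with PFC and HIP lowest, Scn7a is lowest in NAc, and Cacng3 and Cacnb3 are lowest in VTA.

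Calcium pore subunits. Cacna1e, the R-type pore, was low in VTA: 3994 to 7324 (median 4993) against 17422 to 21253 (median 19413) in NAc and 13688 to 18381 (median 16361) in PFC. VTA lay -1.88 ± 0.11, adjusted p = 4.7e-12, from NAc, and NAc and PFC did not differ at the threshold (0.24 ± 0.11, adjusted p = 0.053). That last difference passed, at 0.24 to 0.28, without VTA replicate 2 or 4, NAc replicate 2 or PFC replicate 2, and also with quantile normalisation (0.47, adjusted p = 0.00066) and with edgeR (0.28, adjusted p = 0.030). Per kilobase Cacna1e held 40.4% ± 1.4 (SD, n = 6) of the summed pore level in NAc, 30.0% ± 1.5 in PFC and 19.7% ± 2.2 in VTA. Cacna1g, the T-type pore of burst-firing neurons, was low in NAc at 594 to 1142 (median 943), against 2056 to 3465 (median 2440.5) in VTA and 4478 to 5041 (median 4869) in PFC. The 3 regions did not overlap, and NAc was 5.61-fold below PFC (-2.49 ± 0.15, adjusted p = 6.5e-11). Summed cortical glutamate markers spread widely within the female NAc controls, from 161 to 12755, and their part in the NAc values of PFC-rich genes was not tested.

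The other T-type pores were low in VTA. Cacna1h ran from 1217 to 1717 (median 1395) there against 2863 to 3525 (median 3341) in NAc and 2079 to 2806 (median 2483) in PFC (-1.17 ± 0.08, adjusted p = 8.1e-11, from NAc). Cacna1i ran from 2097 to 2730.3 (median 2251) against 3078 to 4480.0 (median 3993) in NAc and 4471 to 4981 (median 4723) in PFC (-1.01 ± 0.07, adjusted p = 7.4e-11, from PFC). Of the L-type pores, Cacna1c, the channel of cardiac and most neuronal L-type current, was 2.17-fold lower in VTA than in NAc (-1.12 ± 0.06, adjusted p = 1.5e-12). It ran from 1735 to 2024 (median 1954) in VTA, 3484 to 4662 (median 4250.3) in NAc and 3358 to 4049 (median 3819) in PFC. Cacna1d, which opens at lower voltage and is known from dopamine neuron pacemaking, was lowest in VTA at 836 to 1056 (median 976), against 1506 to 1786 (median 1643) in NAc and 2039 to 2396 (median 2244) in PFC. VTA was 2.32-fold below PFC (-1.21 ± 0.06, adjusted p = 2.1e-13). The release channels of nerve terminals, Cacna1a and Cacna1b, were highest in PFC, with medians of 5798 and 6131. Cacna1a was -0.72 ± 0.05, adjusted p = 1.7e-10, in NAc against PFC, and Cacna1b -0.68 ± 0.06, adjusted p = 5.0e-10, in VTA against PFC. Cacna1f of the retina and Cacna1s of skeletal muscle stayed at or under 49.0 and 21.9 normalised reads and were not tested.

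In males, Cacna1c was higher in HIP than in PFC, at 4586 to 6917 (median 5652) against 3611 to 3968 (median 3832), with no overlap (0.59 ± 0.09, adjusted p = 0.00013). Cacna1h was also higher in HIP (0.36 ± 0.10, adjusted p = 0.0098). Cacna1a was lower in HIP (-0.76 ± 0.06, adjusted p = 6.3e-07), as were Cacna1g (-0.59 ± 0.09, adjusted p = 9.1e-05), Cacna1i, Cacna1d and Cacna1b, the last 3 by 0.45 or less. Cacna1b was -0.14 ± 0.05, or -0.24 without the libraries that stood apart. Cacna1e did not differ at the threshold (-0.06 ± 0.06, adjusted p = 0.45).

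Calcium α2δ subunits, the family that includes the gabapentin targets, changed places between regions. Cacna2d1 was highest in PFC, at 8597 to 10375 (median 9364) normalised reads against 4688 to 5466 (median 4932) in NAc and 2427 to 4343 (median 3630.4) in VTA, and VTA was 2.69-fold below PFC (-1.43 ± 0.10, adjusted p = 4.4e-11). Cacna2d2 was highest in VTA, at 3959.9 to 5050.2 (median 4675), with NAc at 3292 to 4372 (median 3783) and PFC at 998 to 1155 (median 1066). VTA exceeded PFC 4.28-fold (2.10 ± 0.07, adjusted p = 1.9e-16). Cacna2d3 was highest in NAc, at 6843 to 8914 (median 8063) against 1722 to 2082 (median 1978) in VTA and 2019 to 2329.8 (median 2156) in PFC. NAc exceeded VTA 4.12-fold and PFC 3.73-fold (1.90 ± 0.06, adjusted p = 1.7e-15). VTA and PFC differed by -0.14 ± 0.06, adjusted p = 0.045, a call lost, at -0.15 to -0.11, when VTA replicate 1, 3, 4 or 6 or PFC replicate 2, 3, 4 or 5 was left out. It was also lost without the libraries that stood apart, of which VTA replicate 3 is one, and with edgeR, quantile normalisation or no filter (adjusted p = 0.053 to 0.12). Cacna2d4, known from the retina, was low throughout, with a median of 113 in VTA.

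Per kilobase, the α2δ make-up of female PFC was 59.0% ± 1.7 Cacna2d1 (SD, n = 6), that of NAc 63.8% ± 3.0 Cacna2d3 and that of VTA 44.1% ± 1.7 Cacna2d2. The tables normalised apart gave values beside these: 45.5% ± 2.3 Cacna2d2 in male VTA and 68.7% ± 1.8 Cacna2d3 among the 3 listed genes of male NAc (SD, n = 4 each). In male PFC Cacna2d1 held 56.6% ± 2.2 and in male HIP 49.2% ± 2.8. HIP had less Cacna2d1 than PFC (-0.38 ± 0.06, adjusted p = 0.00022) and less Cacna2d4 (-0.87 ± 0.11, adjusted p = 3.8e-05). Cacna2d2 did not differ there in all libraries (-0.08 ± 0.15, adjusted p = 0.68), and was lower in HIP (-0.23) once HIP control replicate 4, its highest library, was left out.

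**Figure D3:**
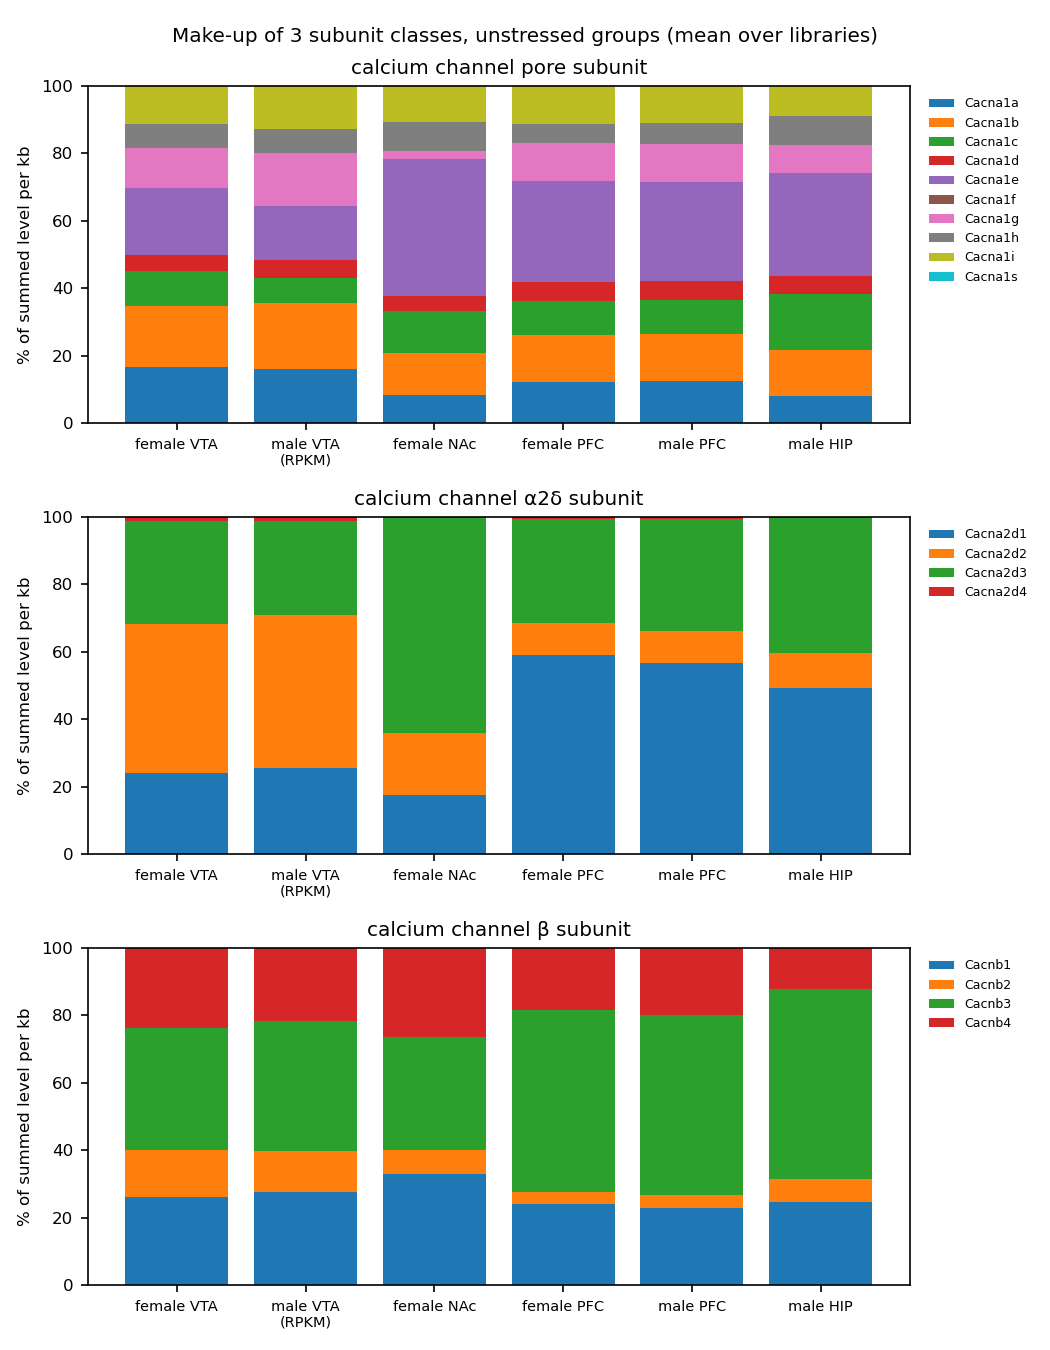
Share of the summed level per kilobase held by each gene within 3 calcium channel subunit classes (stacked bars, mean over standard-reared control libraries; male VTA from RPKM). The leading α2δ gene is Cacna2d2 in VTA, Cacna2d3 in NAc and Cacna2d1 in PFC and HIP.

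Calcium β subunits were lower in VTA, apart from Cacnb2. Cacnb3 was lower in steps, with PFC at 7461 to 8572 (median 8188), NAc at 2759 to 4196 (median 3533) and VTA at 1638 to 1987 (median 1803). No 2 regions overlapped, and VTA was 4.51-fold below PFC (-2.17 ± 0.08, adjusted p = 1.9e-15). Cacnb1, best known from skeletal muscle, was 2.76-fold lower in VTA than in PFC (-1.47 ± 0.06, adjusted p = 8.8e-15), at 1746 to 2027 (median 1895) in VTA, 4588 to 5662 (median 4919) in NAc and 4473 to 5599 (median 5254) in PFC. Cacnb4, the β subunit mutated in the lethargic mouse, was -1.22 ± 0.06, adjusted p = 2.6e-13, in VTA against NAc, at 3198 to 3512 (median 3433) in VTA, 6526 to 8869 (median 8063) in NAc and 7240.3 to 8227 (median 8072) in PFC. Between NAc and PFC neither Cacnb1 (-0.06 ± 0.06, adjusted p = 0.38) nor Cacnb4 (0.01 ± 0.06, adjusted p = 0.88) passed the threshold. With quantile normalisation Cacnb4 passed (0.16, adjusted p = 0.013). Cacnb2 was lowest in PFC, at 1455 to 1744 (median 1573) against 2052 to 2324 (median 2215) in NAc (0.50 ± 0.05, adjusted p = 8.6e-09). In males, Cacnb4 was the β gene that separated HIP from PFC most, at 2719 to 5093 (median 3570.1) against 7178 to 10122 (median 8228) (-1.20 ± 0.13, adjusted p = 6.7e-06), or -0.93 without the libraries that stood apart. Cacnb1 and Cacnb3 were lower in HIP by about the same amount (-0.39 ± 0.05 and -0.41 ± 0.05), and Cacnb2 was higher (0.32 ± 0.09, adjusted p = 0.011).

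γ family. Cacng3, a partner of AMPA receptors, was lowest in VTA at 699 to 949 (median 879) normalised reads, against 2511 to 3859 (median 2723) in NAc and 4129 to 4679 (median 4264) in PFC. The 3 regions did not overlap, and VTA was 5.07-fold below PFC (-2.34 ± 0.09, adjusted p = 8.5e-15). Male HIP was also below PFC, at 1351 to 2677 (median 1791) against 3627 to 4895 (median 4453) (-1.25 ± 0.14, adjusted p = 9.2e-06). Cacng8, the hippocampal AMPA receptor partner, was 2.58-fold lower in VTA than in PFC (-1.37 ± 0.09, adjusted p = 1.5e-11), at 602 to 801 (median 698) in VTA, 1437 to 1730.2 (median 1620.5) in NAc and 1451 to 2056 (median 1853) in PFC. In males it was higher in HIP than in PFC, at 2294 to 3171 (median 2609) against 1682 to 2047 (median 1816), with no overlap (0.53 ± 0.07, adjusted p = 5.0e-05). Cacng2, mutated in the stargazer mouse, was lowest in NAc, at 1526 to 1794 (median 1637) against 2842 to 3601 (median 3354) in VTA (0.99 ± 0.05, adjusted p = 7.5e-13), and lower in HIP than in PFC (-0.72 ± 0.10, adjusted p = 8.1e-05, or -0.47 without the libraries that stood apart).

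Cacng4 was highest in NAc, at 2709.8 to 3803 (median 3275) against 1379 to 2086 (median 1906) in VTA and 958 to 1146 (median 1042) in PFC (1.63 ± 0.09, adjusted p = 5.5e-12, for NAc against PFC). Cacng5 was highest in VTA, at 376 to 1023 (median 689), and lowest in PFC, at 191 to 215 (median 202) (1.69 ± 0.18, adjusted p = 6.0e-08). Its difference between VTA and NAc (0.42 ± 0.18, adjusted p = 0.034) was not called, at 0.29 to 0.42, when replicate 1, 2, 4 or 5 of VTA or of NAc was left out, nor with quantile normalisation or no filter (adjusted p = 0.058 and 0.056). Cacng7 varied least in this family, with regional medians from 3488 in NAc to 4660.4 in VTA. Cacng1, the true skeletal muscle channel subunit, and Cacng6 stayed at or under 17.1 and 35.9 normalised reads and were not tested. Cacng4 in HIP did not differ from PFC in all libraries (-0.16 ± 0.11, adjusted p = 0.28) and was lower (-0.26) without HIP control replicate 4.

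Set beside each other per kilobase, Scn4b had the highest member level in female NAc, at 5477 normalised reads per kilobase, against 2694 for Scn2b. In male VTA, where the level is RPKM, Cacng7 stood at 64.3, Scn2b at 61.3, Scn4b at 52.1 and Scn1a at 35.2. In female VTA Cacng7 stood at 2101, Scn4b at 1769, Scn2b at 1671 and Scn1a at 1112 normalised reads per kilobase. Neighbours such as Scn2b and Scn4b lay within each other's spread in both VTA sets. Of the pore genes, Scn1a held 44.5% ± 2.3 (SD, n = 6) of the listed sodium pore level in female VTA and 43.9% ± 1.7 (SD, n = 4) in male VTA, against 21.2% ± 0.70 in female PFC and 21.0% ± 1.2 in male HIP. Scn8a held 65.2% ± 0.99 in PFC and 38.9% ± 3.3 in female VTA. The gene models of Cacng8 and Cacng6 are short, so their levels per kilobase are overstated and are not ranked here. The short Scn8a model of the male VTA table stood at 4.52 RPKM and the full one at 28.4, and reads may be split between them. Both models are in the summed sodium pore level of male VTA, while the female sum holds the full one only.

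The same regional contrasts were then read in the other libraries, which had adult stress, ELS or both and share no library with the controls. Of the 26 members called between NAc and PFC, all 26 were called in the same direction in ELS controls (all genes called in controls 84.7%) and in ELS STVS mice (88.3%), and 25 in standard-reared STVS mice (84.1%). Of the 30 called between VTA and NAc, 28, 27 and 25 were called again in those groups (all genes 88.6%, 91.6% and 86.3%). Of the 29 called between VTA and PFC, 27 were called again in each (all genes 89.7%, 90.7% and 87.4%). All differences of 1 or more in the female controls passed again in each group. The single reversed sign was Scn7a between VTA and PFC, -0.78 ± 0.17 in controls and 0.30 in ELS STVS mice. Between male HIP and PFC, 23 members were called in controls, of which 16 passed again in ELS controls (all genes 67.5%), 21 in ELS defeat mice (all genes 82.1%) and 12 in standard-reared defeat mice (all genes 65.8%). Cacng3 and Cacnb4 passed in all 3. Scn4b between HIP and PFC was -1.34 and -2.71 in the 2 defeat groups and -1.12 ± 0.88 (adjusted p = 0.35) in ELS controls.

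Partners of the channels were read as 2 lists. Of 16 sodium channel partners, 15 were tested, and VTA exceeded NAc for 10 (all genes 42.5%) and lay below for 3 (all genes 38.6%). VTA was above PFC for 5 (all genes 40%) and below for 6 (all genes 38.8%), NAc above PFC for 7 (all genes 35.7%) and below for 6 (all genes 34.7%), and HIP above PFC for 3 (all genes 23.4%) and below for 6 (all genes 23.3%). Cntn2, a node and juxtaparanode adhesion molecule, was 2.01 ± 0.07 in VTA against PFC, and Nedd4l, a ubiquitin ligase of sodium channels, -2.10 ± 0.08 in VTA against NAc. Unc79, a subunit of the sodium leak channel complex, was -1.29 ± 0.06 in VTA against NAc. Fgf11, a cytoplasmic channel modulator, was higher in NAc than in PFC (1.74 ± 0.11) and higher in HIP than in PFC (1.69 ± 0.07). Of 19 calcium channel partners, 17 were tested in females. VTA was below PFC for 13 and above for 2, below NAc for 10 and above for 4, and NAc was below PFC for 11 and above for 3. In males 9 of 15 were lower in HIP and 1 higher. The shares of all genes are those given for the sodium list. Rem2, a small G protein that inhibits calcium channels, had the largest difference, -4.55 ± 0.13 between VTA and NAc. Bsn, the active zone scaffold Bassoon, was -1.99 ± 0.08 in VTA against PFC, and Rimbp2, which links release sites to calcium channels, -1.83 ± 0.10. Stac, an adaptor of L-type channels, went the other way at 2.29 ± 0.23. The median partner difference was -0.87 for the calcium list in VTA against PFC, where all genes had 0.0078.

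Stress groups. The design asks what adult stress did after standard rearing and after ELS, what ELS did alone, and whether the effect of adult stress depended on ELS (the interaction), in each region and sex. These made 31 contrasts and 971 tests of a member in a contrast. No member was called in any of them with limma at an adjusted p of 0.05, and no other gene was either (0% of all genes in each of the 31 contrasts). The lowest adjusted p of a member was 0.18, for Scn3a in male PFC. Unadjusted p was under 0.05 in 57 of the 971 tests (5.87%), where all genes gave 6.005%. edgeR on the recovered reads called no gene in the 27 contrasts where it could be run. No partner gene was called either. Contrasts within a region share control libraries, so their values are given side by side and not as support for each other. No member reached an unadjusted p under 0.05 in the same direction in 2 contrasts of one region that shared no library. In what follows each value is a log2 difference with its standard error and an unadjusted limma p, and none of these differences passed the adjusted threshold.

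**Figure D4:**
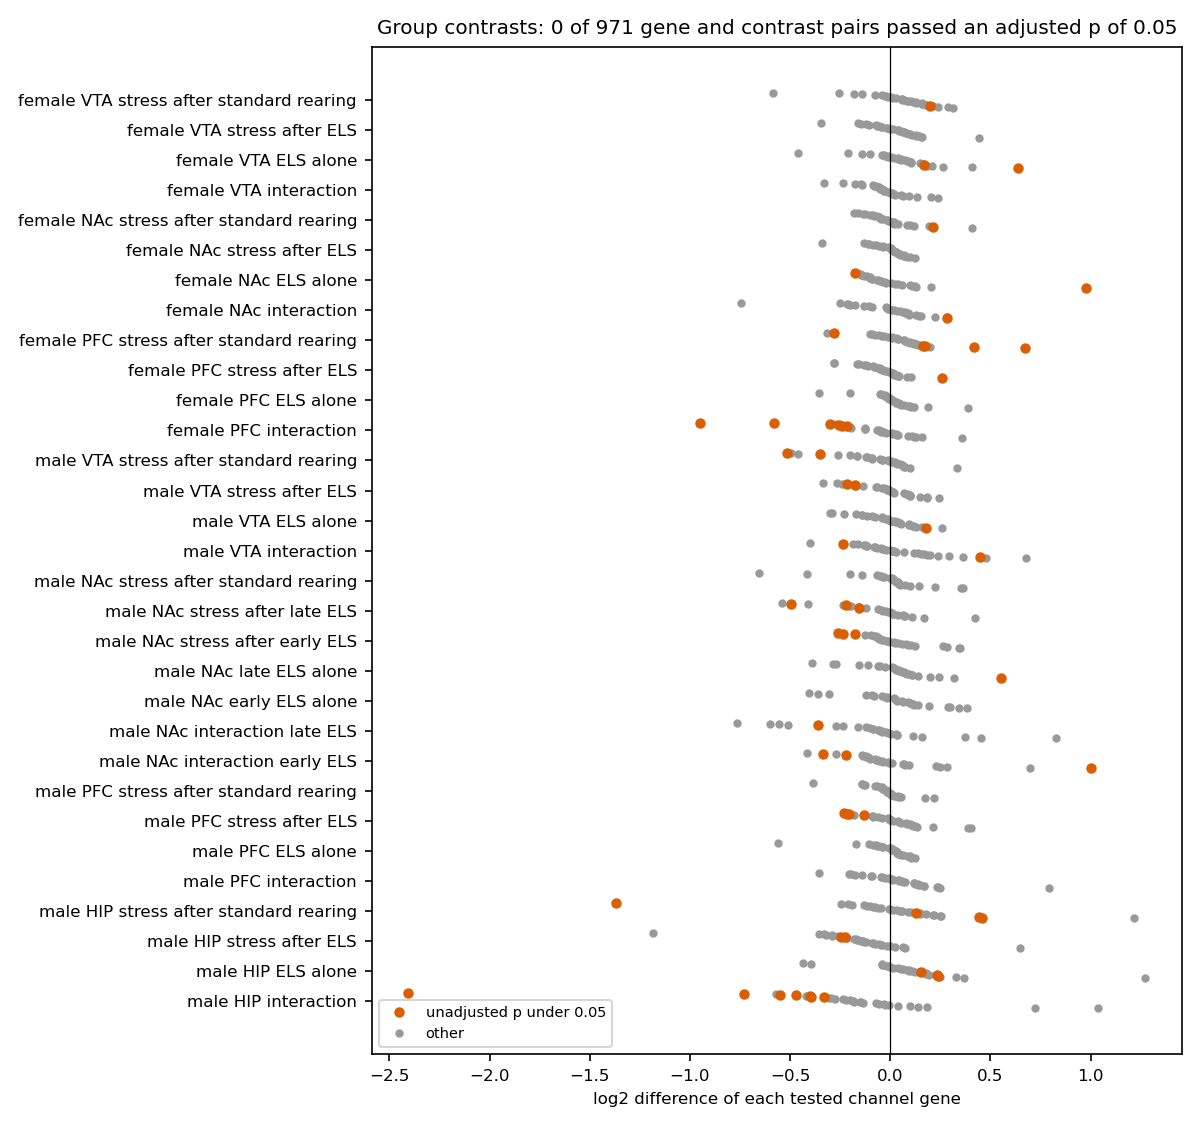
Log2 differences of every tested channel gene (points) in the 31 contrasts of early life stress and adult stress (rows), with orange for an unadjusted p under 0.05. Most points lie within 0.5 of 0, and the widest is Scn4b in the male HIP interaction.

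In female VTA, unadjusted p was under 0.05 for 1 of 32 members after STVS in standard-reared mice (all genes 4.44%), 0 of 32 after STVS in ELS mice (all genes 1.34%), 2 of 32 for ELS alone (all genes 4.22%) and 0 of 32 for the interaction (all genes 2.37%). Without the libraries that stood apart the count for ELS alone was 0 of 32 (all genes 3.51%). Scn2b had the smallest p of the higher members both after STVS (0.20 ± 0.07, unadjusted p = 0.013) and for ELS alone (0.17 ± 0.07, unadjusted p = 0.028). Its libraries stood at 6804 to 8992 (median 7487) in standard controls, 8015, 8151, 8607, 8749 and 10104 in standard STVS and 7781, 7926, 8865, 9101 and 9132 in ELS controls, all overlapping. On the lower side Scn8a led in both (-0.25 ± 0.15, unadjusted p = 0.10, and -0.21 ± 0.15, unadjusted p = 0.17). After STVS in ELS mice Cacna1h led the higher side (0.15 ± 0.12, unadjusted p = 0.20) and Cacnb4 the lower (-0.07 ± 0.04, unadjusted p = 0.16). In the interaction the leaders were Cacna1a (0.06 ± 0.08, unadjusted p = 0.51) and Cacna2d4 (-0.24 ± 0.16, unadjusted p = 0.17), the latter at -0.09 without the libraries that stood apart.

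In female NAc, 2 of 31 members had an unadjusted p under 0.05 for ELS alone (all genes 11.2%), with Cacna1a leading the lower side (-0.17 ± 0.08, unadjusted p = 0.041). The counts were 1 of 31 after STVS (all genes 6.16%), 0 of 31 after STVS in ELS mice (all genes 2.2%) and 1 of 31 for the interaction (all genes 7.94%). After STVS the leaders were Cacnb3 (0.21 ± 0.10, unadjusted p = 0.043) and Cacna1e (-0.18 ± 0.11, unadjusted p = 0.11). After STVS in ELS mice they were Scn9a (0.12 ± 0.10, unadjusted p = 0.21) and Cacng5 (-0.13 ± 0.10, unadjusted p = 0.18), and in the interaction Scn9a led the higher side (0.28 ± 0.14, unadjusted p = 0.048).

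In female PFC, 5 of 32 members had an unadjusted p under 0.05 after STVS (all genes 5.04%) and 6 of 32 in the interaction (all genes 7.91%), with 1 of 32 after STVS in ELS mice (all genes 3.25%) and 0 of 32 for ELS alone (all genes 3.29%). All 6 members of the interaction were negative, among them Cacna2d1 (-0.22 ± 0.09, unadjusted p = 0.024), Cacng2, Cacng3, Cacnb4 and Scn4b. Without the library that stood apart the counts were 0 of 32 (all genes 7.36%) in the interaction and 1 of 32 (all genes 4.89%) after STVS. Without it the interaction was -0.18, unadjusted p = 0.057 for Cacna2d1, -0.22, unadjusted p = 0.061 for Cacng2 (from -0.25) and -0.27, unadjusted p = 0.068 for Cacng3 (from -0.30). Cacna2d1 stood at 8597 to 10375 (median 9364) in standard controls, 9000.4, 9473, 9700.3, 10786 and 10989.5 in standard STVS, 8938, 9179.6, 9452, 9713 and 10767 in ELS controls and 7888 to 9912 (median 8854) in ELS STVS mice, all overlapping. After STVS Cacng2 led the higher side (0.17 ± 0.08, unadjusted p = 0.037) and Scn9a the lower (-0.28 ± 0.13, unadjusted p = 0.041). After STVS in ELS mice the leaders were Cacng5 (0.26 ± 0.12, unadjusted p = 0.036) and Cacna2d1 (-0.12 ± 0.06, unadjusted p = 0.072). For ELS alone Scn7a led the lower side (-0.35 ± 0.17, unadjusted p = 0.052), and Scn9a led the higher side of the interaction (0.36 ± 0.18, unadjusted p = 0.061).

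In male VTA 33 member genes were tested, on log2(RPKM + 1). Scn7a stood at 1.12, 1.27, 1.39 and 1.45 RPKM in 4 standard controls and at 0.630 to 1.08 (median 0.772) in 6 standard defeat libraries, which did not overlap (-0.35 ± 0.14, unadjusted p = 0.023, adjusted p = 0.69). ELS controls and ELS defeat libraries stood at 0.440, 0.749, 1.02 and 1.48 and 0.602 to 1.62 (median 1.05). Scn7a thus lay near the 0.5 RPKM limit, where adding 1 shrinks a log2 difference (means of 1.31 RPKM in standard controls and 0.815 after defeat). Counts with an unadjusted p under 0.05 were 2 of 33 after defeat (all genes 6.56%), 2 of 33 after defeat in ELS mice (all genes 4.57%), 1 of 33 for ELS alone (all genes 2.03%) and 2 of 33 in the interaction (all genes 5.46%). Scn4b led the higher side after defeat (0.33 ± 0.26, unadjusted p = 0.21). After defeat in ELS mice the leaders were Cacna1h (0.24 ± 0.14, unadjusted p = 0.10) and Cacnb4 (-0.21 ± 0.08, unadjusted p = 0.019), whose ELS controls held 1 high library. For ELS alone they were Cacna2d3 (0.18 ± 0.09, unadjusted p = 0.049) and Scn7a (-0.29 ± 0.15, unadjusted p = 0.078), and these 2 changed sides in the interaction, Scn7a at 0.45 ± 0.20, unadjusted p = 0.038 and Cacna2d3 at -0.24 ± 0.11, unadjusted p = 0.045.

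Male NAc allowed both ELS windows to be read for the 29 listed members. Counts with an unadjusted p under 0.05 were 0 of 29 after defeat (all genes 3.39%), 3 of 29 after defeat in late ELS mice (all genes 8.41%) and 3 of 29 in early ELS mice (all genes 7.71%). They were 1 of 29 for late ELS (all genes 6.77%) and 0 of 29 for early ELS (all genes 3.46%), and 1 of 29 and 3 of 29 in the 2 interactions (all genes 3.93% and 6.03%). Cacna2d2 led the lower side after defeat in late ELS mice, at 4205, 4316, 4380.4 and 4868 in controls and 3455 to 4286 (median 3835) in defeat libraries, which overlapped (-0.22 ± 0.08, unadjusted p = 0.013). It also led the late interaction (-0.36 ± 0.12, unadjusted p = 0.0044). Cacng4 led the lower side after defeat in early ELS mice, at 3912, 4581, 4732 and 4845 in controls and 3204, 3706, 3953, 4064 and 4247 in defeat libraries, which overlapped (-0.24 ± 0.09, unadjusted p = 0.0095), and that of the early interaction (-0.34 ± 0.12, unadjusted p = 0.0082). The higher side was led by Cacna2d1 after defeat in late ELS mice (0.11 ± 0.06, unadjusted p = 0.074) and in the late interaction (0.16 ± 0.08, unadjusted p = 0.070).

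Without ELS, defeat in male NAc was led by Cacng5 (0.22 ± 0.11, unadjusted p = 0.059) and Cacna1f (-0.66 ± 0.34, unadjusted p = 0.059), a gene of few reads that also led the higher side of the early interaction (1.00 ± 0.48, unadjusted p = 0.047). ELS without defeat was led on the lower side by Cacna2d1 in both windows (-0.11 ± 0.07, unadjusted p = 0.091, late; -0.09 ± 0.07, unadjusted p = 0.17, early), against the same standard controls. On the higher side Cacng1 led for late ELS (0.55 ± 0.26, unadjusted p = 0.039), at 26.3, 29.1, 30.2 and 43.0 normalised reads in late ELS controls and 17.5, 18.7, 21.5 and 28.7 in standard controls. Cacng5 led for early ELS (0.20 ± 0.12, unadjusted p = 0.13).

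In male PFC, 4 of 32 members had an unadjusted p under 0.05 after defeat in ELS mice (all genes 16.7%), and all were lower. Scn3a stood at 2359 to 2832 (median 2517) in ELS controls and at 1785 to 2491 (median 2274) in ELS defeat libraries, which overlapped (-0.23 ± 0.07, unadjusted p = 0.0022). By median, standard-reared mice lay between these, at 2290.5 to 2565 (median 2371) in controls and 2105 to 2517 (median 2318) after defeat. The others were Cacna1e (-0.21 ± 0.07, unadjusted p = 0.0080), Scn3b (-0.21 ± 0.08, unadjusted p = 0.014) and Cacna1c (-0.13 ± 0.06, unadjusted p = 0.041). Without the libraries that stood apart the count was 4 of 32 (all genes 16.8%). The other 3 contrasts had 0 of 32 after defeat (all genes 3.35%), 0 of 32 for ELS alone (all genes 2.22%) and 0 of 32 in the interaction (all genes 5.94%). Their leaders were Scn9a (0.17 ± 0.13, unadjusted p = 0.19) and Cacnb4 (-0.14 ± 0.07, unadjusted p = 0.070) after defeat, and Cacna1c (0.10 ± 0.06, unadjusted p = 0.098) and Scn4b (-0.56 ± 0.33, unadjusted p = 0.11) for ELS alone. In the interaction they were Cacna1i (0.25 ± 0.12, unadjusted p = 0.051) and Scn9a (-0.35 ± 0.18, unadjusted p = 0.058). Without the libraries that stood apart, Scn9a was 0.03 after defeat and -0.21 in the interaction, and Scn4b -0.19 for ELS alone.

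Male HIP held the widest differences, and its libraries differed most in tissue markers. After defeat in ELS mice 28 of 32 members had a negative difference (median -0.14, all genes -0.000496), and in the interaction 26 of 32 (median -0.19, all genes 0.00981). These 2 contrasts share the ELS libraries. For ELS alone 23 of 32 were positive (median 0.099, all genes -0.0014), and after defeat 19 of 32 (median 0.052, all genes -0.010). Female VTA after STVS and for ELS alone, and female PFC after STVS, also had 23 of 32 positive. The share of all genes on each side was not counted. Unadjusted p was under 0.05 for 7 of 32 members in the interaction (all genes 11.8%), 4 of 32 after defeat (all genes 14.4%), 2 of 32 after defeat in ELS mice (all genes 7.88%) and 3 of 32 for ELS alone (all genes 6.46%). The 6 HIP libraries with high Ttr were 3 of 6 standard controls, 1 of 6 ELS controls and 2 of 6 ELS defeat libraries, with none among standard defeat. Their summed choroid plexus markers (4 of 4 measured) were 18934 or higher, against 315 to 1084 in the other 18. Their dentate granule cell markers (3 of 3 measured) ran from 1073 to 2029, against 4569 to 11667. Without these libraries the interaction had 2 members at an unadjusted p under 0.05, where all genes gave 1.72%, and 23 of 32 were negative (median -0.13, all genes 0.0167). The other counts were then 0 of 32 (all genes 2.94%) after defeat, 1 of 32 (all genes 6.58%) after defeat in ELS mice and 0 of 32 (all genes 1.11%) for ELS alone. After defeat in ELS mice 24 of 32 members were then negative (median -0.14, all genes 0.000415). For ELS alone 19 of 32 were then positive (median 0.069, all genes -0.0091), and after defeat 16 of 32 (median 0.0025, all genes -0.011). The part of choroid plexus and of the dentate share in these differences was not tested.

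Scn1a had the smallest p of the interaction (-0.40 ± 0.14, unadjusted p = 0.0088). It stood at 3607 to 4656 (median 4053) in standard controls, 3581 to 6429.9 (median 4540.1) in standard defeat, 4456 to 5256 (median 4774) in ELS controls and 3751 to 4545 (median 4146) in ELS defeat libraries, with ELS controls the highest group by median. It also led ELS alone (0.23 ± 0.10, unadjusted p = 0.028) and, on the lower side, defeat after ELS (-0.23 ± 0.10, unadjusted p = 0.033), 2 contrasts that share the ELS controls. Scn7a led the opposite sides, at 0.65 ± 0.35, unadjusted p = 0.078 after defeat in ELS mice, -0.39 ± 0.35, unadjusted p = 0.27 for ELS alone and 0.72 ± 0.50, unadjusted p = 0.16 in the interaction. Without the libraries with high Ttr, Scn7a was -0.19 for ELS alone and 0.36 in the interaction. Scn1a was then 0.20 for ELS alone (unadjusted p = 0.15) and -0.26 after defeat in ELS mice (unadjusted p = 0.056). Its interaction was -0.41 (unadjusted p = 0.038). After defeat in standard-reared mice Cacna2d4 led the higher side (0.46 ± 0.17, unadjusted p = 0.014).

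Scn4b had the widest single difference, -2.40 ± 1.03 in the HIP interaction (unadjusted p = 0.028), and 1 library stood far above the rest. ELS control replicate 6 held 9775 normalised reads, against 118 to 1174 in the other 23 HIP libraries. The same library had summed striatal projection neuron markers (6 of 7 measured) of 39100, against 4141 to 10165 elsewhere, and the highest Cacna2d2 (2180.1) and Cacng4 (1751) of the 24. These 3 genes were among those higher in NAc than in PFC. Without it the interaction of Scn4b was -1.56 ± 0.67 (unadjusted p = 0.031) and ELS alone went from 1.27 to 0.43. Whether striatal tissue entered this library was not tested.

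**Figure D5:**
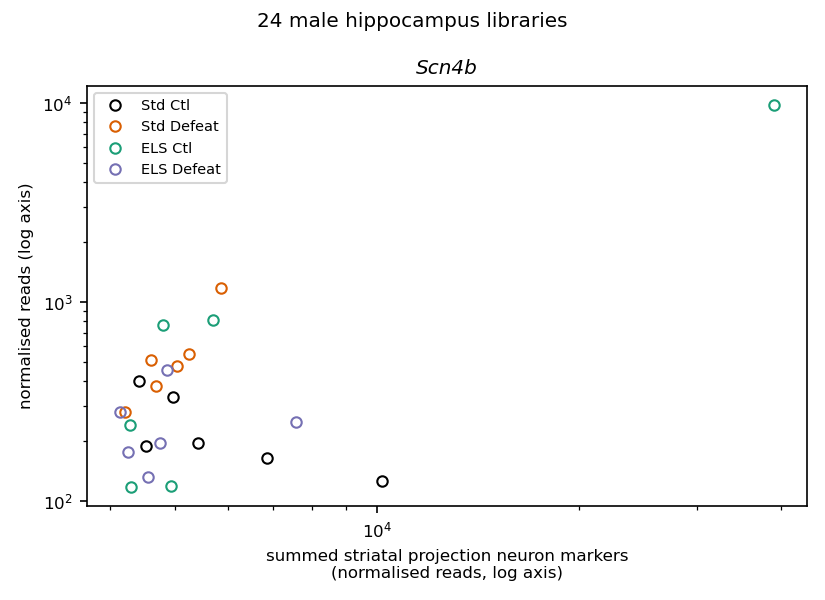
Scn4b against summed striatal markers in the 24 male HIP libraries, in normalised reads on log axes, coloured by group. A single ELS control stands apart at the upper right.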

How the data were processed

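RNA from 163 libraries was analysed, and the 16 samples of chromatin or input DNA were left out. Per the labels' protocols, polyadenylated RNA was made into unstranded libraries and sequenced single-end. Per the submitters' processing notes, reads were processed with HISAT and HTSeq, or with TopHat2 and HTSeq for male VTA, on mm10 (mm9 and mm10 are listed for the male VTA set). The deposited signal values of 2 tables are gene read counts that the authors divided by a factor per library (normalised reads). The male VTA table holds RPKM as the authors deposited it, with 181 genes lacking values and its depth unknown. Whole reads were recovered by step size from 100% of the normalised values (tolerance 0.001). Values were taken as log2(value + 1) and tested with limma 3.58.1 in R 4.3.3 (trend, robust) over the 14000 genes of highest mean per set, or genes of mean RPKM of at least 0.5, with Benjamini-Hochberg adjustment at 0.05. Region contrasts used standard-reared controls, stress contrasts all groups of a region. The 3 tables were normalised separately and tested apart. 10 female NAc libraries whose adult-condition label gives no stress were grouped by title. Alternatives were edgeR 4.0.16 on recovered reads, pseudocounts of 5 or 0.1, no filter, quantile normalisation, a replicate block and leaving out libraries. The scripts were tested on simulated data. Of the members, 2 are counted in the totals and not reported here by name. The members and lists were chosen with earlier results of these data known. Named genes are members called with a log2 difference of at least 1 between regions, and in each stress contrast, where none was called, the member of smallest p on each side. Libraries of the count-based tables held 13.6 to 42.7 M reads. Errors of log2 differences are limma standard errors, whose spread is pooled over the groups fitted together and moderated over genes. Errors of shares are standard deviations (SD) over libraries. Levels per kilobase used exon lengths from the GENCODE M1 gene annotation, which is of mm9. Male VTA shares rest on the authors' own RPKM lengths.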

Additional observations from a re-analysis of the deposited data

Results flagged for a closer look

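Values were checked in 218 combinations of a member named above and a group of 4 to 6 libraries that its contrast compares. In 15 of them (6.88%) one library lay further from the rest than Dixon's 95% limit allows, where chance alone flags about 1 in 20. In each case that library was the highest. In male HIP, ELS control replicate 6, the library of high striatal markers, held 3: Scn4b stood at 9775 normalised reads, against 118 to 812 in the others of its group (gap over range 0.928), Cacna2d2 stood at 2180.1 normalised reads, against 885 to 1249 in the others of its group (gap over range 0.719), and Cacng4 stood at 1751 normalised reads, against 700.0 to 877 in the others of its group (gap over range 0.832). Of the male HIP standard controls, replicate 4, which had high Ttr, held 2: Cacna2d2 stood at 1828 normalised reads, against 853 to 1119 in the others of its group (gap over range 0.727), and Cacng4 stood at 1271 normalised reads, against 747 to 914 in the others of its group (gap over range 0.682). ELS defeat replicate 5, also of high Ttr, held 1, Cacna2d2, which stood at 1136 normalised reads, against 830.1 to 942 in the others of its group (gap over range 0.634). Scn4b of standard defeat replicate 1 in male HIP stood at 1174 normalised reads, against 279 to 547 in the others of its group (gap over range 0.701).

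In male PFC, Scn4b of standard control replicate 4 stood at 4519 normalised reads, against 1046 to 1723 in the others of its group (gap over range 0.805). ELS control replicate 5 of male PFC held 2: Scn4b stood at 2117 normalised reads, against 882 to 1168 in the others of its group (gap over range 0.768), and Cacna1i stood at 5889 normalised reads, against 4061 to 4456 in the others of its group (gap over range 0.784). In female NAc, Cacng5 of ELS STVS replicate 4 stood at 588 normalised reads, against 411 to 469.7 in the others of its group (gap over range 0.669). In female PFC, Scn7a of standard control replicate 4 stood at 597 normalised reads, against 319 to 423 in the others of its group (gap over range 0.626). Cacnb4 of ELS control replicate 5 there stood at 10819 normalised reads, against 7737 to 8046 in the others of its group (gap over range 0.900). In female VTA, Cacna1a of ELS control replicate 5 stood at 4269 normalised reads, against 3851 to 3971 in the others of its group (gap over range 0.714). In male VTA, Cacnb4 of ELS control replicate 2 stood at 17.7 RPKM, against 11.4 to 11.9 in the others of its group (gap over range 0.932).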

How the results depend on the processing

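The number of members called between regions kept within 1.5 times under every alternative run: 28 to 34 for VTA against NAc, 28 to 33 for VTA against PFC, 26 to 30 for NAc against PFC and 19 to 24 for HIP against PFC. The main fit tested 32 members, and the run with no filter tested more of the 39 listed, so its counts have a larger base. Shares of all genes stand beside the main counts above and are not given for the alternatives. Leaving out 1 library gave 29 to 31, 27 to 29, 25 to 27 and 21 to 26. No member was called in a stress contrast under any alternative or with 1 library left out. No label says that a replicate number marks one animal or batch, so the numbers were not taken to pair the samples. Same-numbered libraries did not deviate together in every pair, a check that cannot tell whether some numbers share an animal or batch. The median correlation of same-numbered libraries, read across regions in standard-reared controls only, was 0.014 in females and 0.063 in males. Within a region it was 0.17 in female VTA (5 of 22 libraries correlated best with their own number), 0.080 in female NAc (8 of 22), 0.12 in female PFC (12 of 22), 0.020 in male VTA (2 of 20), 0.065 in male PFC (6 of 24) and 0.082 in male HIP (5 of 24), with other numbers at -0.037 to 0.0017. Standard-reared STVS replicate 3 had low Xist, without a flag for Ddx3y, in all 3 female regions. The fit with a replicate block called 29, 28, 27 and 23 members in these contrasts, against 30, 29, 26 and 23 without it. With the block Cacng5 in VTA against NAc (adjusted p = 0.051) and Cacna2d3 in VTA against PFC (adjusted p = 0.070) were not called, and Cacna1c in NAc against PFC was (0.13, adjusted p = 0.041). The block was not run for male NAc, whose titles carry no number within a group. Cacng5 and Cacna2d3 were also not called when all groups were fitted (adjusted p = 0.094 and 0.12). Between NAc and PFC, quantile normalisation ended the call of Cacna1i (-0.16, adjusted p = 0.050), Cacna1c also passed with it or with edgeR (0.23 and 0.18), and Cacng8 passed without PFC replicate 4 or 6 (-0.21 and -0.23). Signs reversed only for differences that were not called. With quantile normalisation these were Cacnb1 in NAc against PFC (0.068) and, in HIP against PFC, Cacna1e (0.15) and Cacng5 (-0.054). Without the libraries that stood apart, Cacng5 was -0.23 in HIP against PFC. Leaving out 1 library reversed Cacng5 there (-0.043 and -0.030, without replicate 4 of HIP or of PFC) and Cacnb4 in NAc against PFC (-0.022 to 0.066 over all 18 libraries left out in turn: -0.0049, -0.016 and -0.022 without NAc replicate 1, 3 or 4, -0.012 and -0.0078 without PFC replicate 1 or 6). Without male PFC ELS control replicate 1, 35 genes, none of them a member, were called after defeat in ELS mice.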
